A study of Homo sapiens with 4 samples.

Results

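The major histone gene cluster of human chromosome 6 was described here through the ATAC-seq peaks that overlapped 26.0 to 27.9 Mb on build hg19, a window of 1.9 Mb. The window was chosen by position, not by any measured value. It held 428 of the 181268 peaks in the 4 deposited lists: 81 of 26223 in control, 141 of 75585 after Activin A, 64 of 21078 with Wnt3a and 142 of 58382 with both ligands. Merging peaks that overlapped by at least 1 base or touched gave 158 regions of 87966 in the whole series. Inside the window, 3 stretches that are packed with histone genes (26.00 to 26.30, 27.05 to 27.15 and 27.75 to 27.90 Mb, called here the first, middle and last dense group) were set against the rest of the window. The dense groups held 63 of the 158 regions and the rest 95.

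ATAC-seq marks open chromatin by the places where a transposase can insert sequencing adapters. The cells were H1 human embryonic stem cells, an established line, kept on Matrigel with no feeder layer. Control cells stayed in growth medium with N2, B27 and basic fibroblast growth factor. The other groups were moved to a medium with B27, whose listed contents leave out N2 and the growth factor, and received Activin A at 25 ng/ml, Wnt3a at 25 ng/ml, or both at 25 ng/ml each, and were harvested after 6 h. Every comparison with control is therefore a comparison of ligand and medium together. The labels give the same differentiation status, an early stage towards mesendoderm, to all 4 samples, the control included. Each group had 1 library and no replicate, so the values below are those of single libraries, no test between groups was made, and intervals are exact (Clopper-Pearson) 95% intervals that cover counting error only. Read depth per library is unknown here. The lists carry no gene names, so the identity of the cells was not checked against marker genes.

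Replication-dependent histone genes encode the core histones H2A, H2B, H3 and H4, around which DNA is wrapped, and the linker histone H1, which binds DNA between nucleosomes. These genes have no introns, their messages end in a stem-loop in place of a poly(A) tail, and they are transcribed mainly in S phase, when newly copied DNA needs histones. Their transcription takes place in the histone locus body, a nuclear compartment organised by NPAT, a target of cyclin E and CDK2. Embryonic stem cells are known for a short G1 phase, so a large share of a growing culture is in S phase.

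RefSeq (GRCh38.p14) was used for gene names, gene order and promoter sequence only, because its build differs from that of the peak lists. No peak was assigned to a gene. All 52 histone genes of a fixed list were found in its gene table. In gene order they formed 3 blocks, taken as separate where at least 10 other genes stood between neighbours: 31 genes from H1-1 to H4C8, 5 from H2BC11 to H2AC12 and 16 from H2BC13 to H2BC17. Between the blocks the table lists 47 and then 51 tRNA genes, which are transcribed by RNA polymerase III, and these make up all 98 tRNA genes from the first to the last gene of the list. The stretches between the histone blocks also hold butyrophilin genes (such as BTN3A2 and BTN1A1), ABT1, PRSS16 and zinc finger genes such as ZNF184.

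Promoter sequences, the 250 bases before the start site, were found for 47 of the 52 genes. H2AC12, H3C11, H3C12, H4C1 and H4C3 had none in the table. The examples below were chosen after their motifs were known and show single promoters, not whole classes. They are those of a head-to-head H2B and H2A pair, an H3 gene and an H4 gene, all on chromosome 6. Each is read 5′ to 3′ on the strand of the gene (minus for H2BC11, H3C8 and H4C8, plus for H2AC11). Capitals mark 3 motifs searched on both strands: the octamer ATTTGCAT, which is bound by POU-domain factors, CCAAT, which is bound by NF-Y, and the TATA box TATAAA. Overlapping matches were allowed.
H2BC11: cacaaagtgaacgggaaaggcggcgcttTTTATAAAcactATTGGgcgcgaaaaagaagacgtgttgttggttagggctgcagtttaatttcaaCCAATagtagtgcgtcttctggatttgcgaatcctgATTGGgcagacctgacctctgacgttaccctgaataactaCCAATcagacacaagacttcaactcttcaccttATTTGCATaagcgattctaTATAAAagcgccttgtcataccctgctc
H2AC11: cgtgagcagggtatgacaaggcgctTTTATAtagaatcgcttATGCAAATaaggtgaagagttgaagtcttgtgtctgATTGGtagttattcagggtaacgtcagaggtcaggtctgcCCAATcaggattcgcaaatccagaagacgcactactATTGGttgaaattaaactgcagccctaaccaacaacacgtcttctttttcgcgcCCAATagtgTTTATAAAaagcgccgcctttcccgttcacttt
H3C8: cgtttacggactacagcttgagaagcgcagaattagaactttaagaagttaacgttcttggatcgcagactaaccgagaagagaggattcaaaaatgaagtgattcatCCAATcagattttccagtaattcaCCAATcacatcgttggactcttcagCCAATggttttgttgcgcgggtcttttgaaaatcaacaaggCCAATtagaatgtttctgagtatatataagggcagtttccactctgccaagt
H4C8: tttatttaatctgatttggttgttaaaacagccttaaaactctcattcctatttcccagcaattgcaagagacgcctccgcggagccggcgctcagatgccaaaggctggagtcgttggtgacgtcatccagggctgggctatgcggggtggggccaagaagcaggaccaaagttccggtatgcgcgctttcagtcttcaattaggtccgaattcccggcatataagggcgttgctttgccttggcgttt
The H2BC11 and H2AC11 promoters are the same DNA read from opposite strands, with 247 of the 250 bases in 1 identical run. Of the neighbouring pairs in the list, 8 had overlapping promoter windows on opposite strands, and in each the partners were an H2A and an H2B gene. This overlap was judged on the promoter intervals as listed, before the cut to 250 bases. The octamer was found in 11 of 14 H2B and 8 of 10 H2A promoters, in 1 of 8 H3 promoters and in none of the 6 H1 or 9 H4 promoters, against 1.63% of all 35116 promoters in the table. The H2A and H2B counts are not independent, because 1 match in DNA shared by a pair can count for both genes. CCAAT was found in all 38 H1, H2A, H2B and H3 promoters and in 3 of 9 H4 promoters, against 32.0% of all promoters. TATAAA was found in 30 of the 47, against 10.7%. By class the counts were 3 of 6 H1, 7 of 10 H2A, 10 of 14 H2B, 5 of 8 H3 and 5 of 9 H4 promoters. The H3C8 and H4C8 examples have no TATAAA, unlike most promoters of their class. All these motif matches describe letters in the sequence and not sites in use.

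Taken as 1 set, the 3 dense groups held more peaks per Mb than the rest of the window in all 4 lists. In control the dense groups held 60.0 peaks per Mb and the rest 35.6. After Activin A the densities were 103.6 and 62.2 peaks per Mb, with Wnt3a 47.3 and 28.1, and with both ligands 105.5 and 62.2. The groups differed among themselves. The first held 66.7 peaks per Mb in control, 110.0 after Activin A, 60.0 with Wnt3a and 110.0 with both, and the middle one 70.0, 80.0, 40.0 and 70.0. The last held 40.0, 106.7, 26.7 and 120.0, so that with Wnt3a it lay below the 28.1 of the rest. The dense groups make up 28.9% of the window but held 40.7% (29.9 to 52.2) of its control peaks, 40.4% (32.3 to 49.0) of those after Activin A, 40.6% (28.5 to 53.6) with Wnt3a and 40.8% (32.7 to 49.4) with both. The ratio of density in the dense groups to that in the rest was 1.69 in control, 1.67 after Activin A, 1.68 with Wnt3a and 1.69 with both, although the lists differ several-fold in length. Of the 91 stretches of 1.9 Mb into which chromosome 6 was tiled, none held more peaks than the histone window in the control, Wnt3a and combined lists, and 3 held more in the Activin A list. The median stretch held 13 control peaks, 36 after Activin A, 11 with Wnt3a and 28 with both. The stretch before the window held 15, 44, 15 and 35 peaks in the same order, and the stretch after it 31, 91, 26 and 80.

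**Figure D1:**
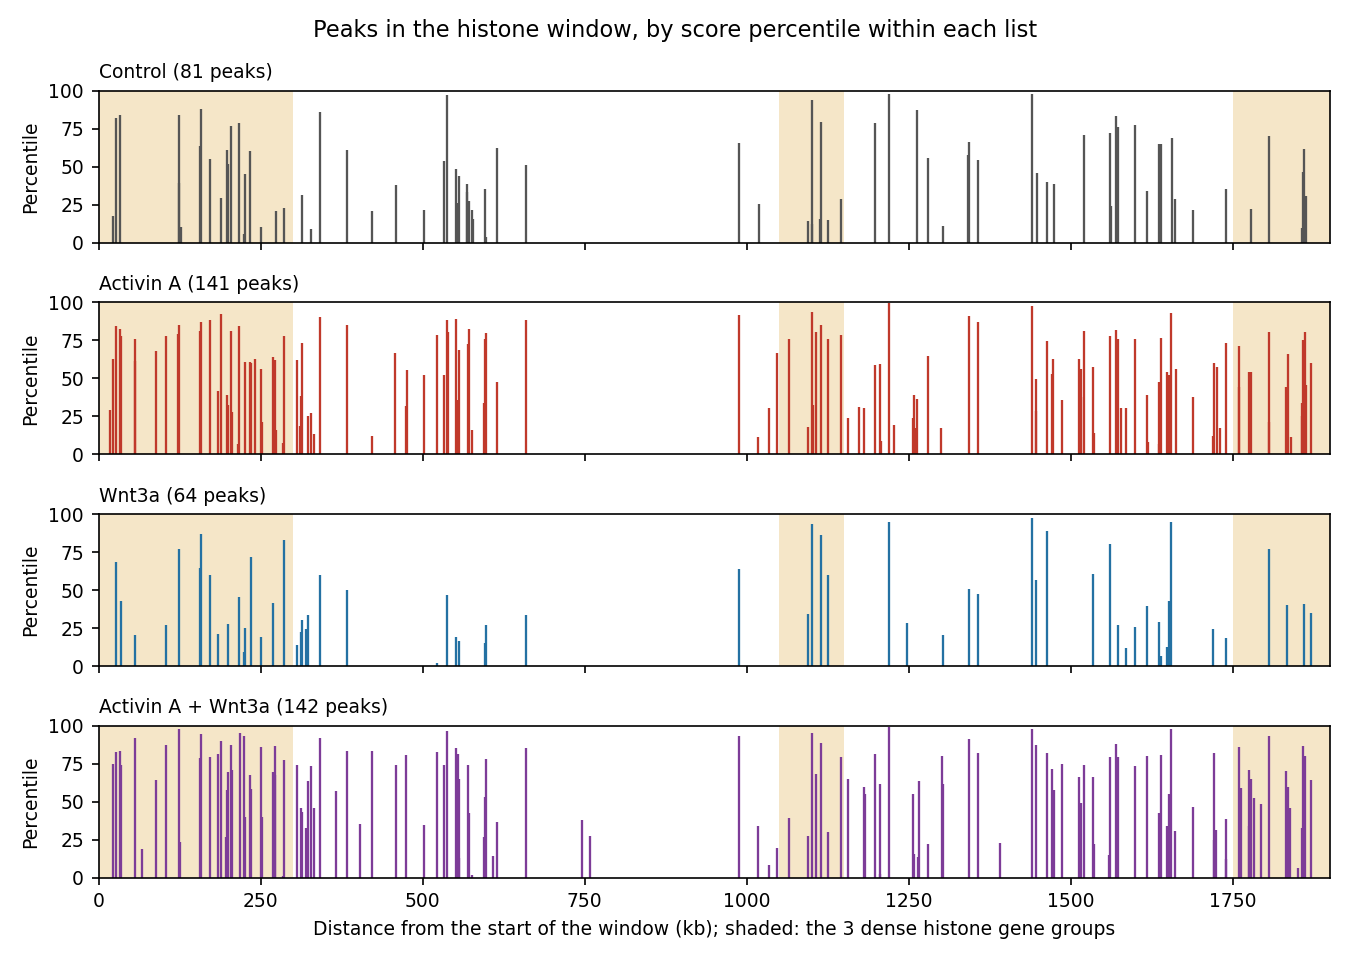
Position of each peak (x axis, distance from the start of the window in kb) and its score percentile among all peaks of its own list (y axis, 0 to 100), 1 panel per library, with the 3 dense histone gene groups shaded. The Activin A and combined lists have 141 and 142 peaks here and the control and Wnt3a lists 81 and 64, and a stretch of 228 kb between the first and middle groups has no peak in any list.

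List length bears on these numbers. Each list was also limited to its 21078 best-scoring peaks, the length of the Wnt3a list. The window then held 68 control peaks, 49 after Activin A, 64 with Wnt3a and 75 with both. In the dense groups 24, 23, 26 and 36 peaks were left in that order, and in the rest 44, 26, 38 and 39. The larger number after Activin A in the full lists was thus made of peaks outside its best 21078, whereas with both ligands the dense groups kept more peaks than in any other list. At this length the ratio of densities was 1.34 in control, 2.17 after Activin A, 1.68 with Wnt3a and 2.27 with both, and 2 stretches of chromosome 6 held more Activin A peaks than the window.

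The combined list, shorter as a whole than the Activin A list, had about as many peaks in the window, and they were broader. Peaks covered 58.4 kb of the window in control, 113.2 kb after Activin A, 41.8 kb with Wnt3a and 141.6 kb with both. In the dense groups the covered share was 4.3% in control, 8.6% after Activin A, 2.9% with Wnt3a and 11.5% with both. Median peak width in the dense groups was 611 bp for control, 790 bp for Activin A, 603 bp with Wnt3a and 943 bp with both, where the medians of the whole lists were 671, 683, 622 and 741 bp. In the rest of the window the medians were 639, 712, 617 and 866.5 bp. Width goes with score, so each list was divided into 10 bins of score and each peak was compared with the median width of its own bin. By that measure 34 of 58 dense peaks were wider with both ligands (49.8% of the whole list), 28 of 57 after Activin A (49.9%), 10 of 26 with Wnt3a (49.7%) and 15 of 33 in control (49.5%). In the rest of the window the counts were 43 of 84 with both ligands, 35 of 84 after Activin A, 25 of 38 with Wnt3a and 25 of 48 in control.

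Neighbouring peaks stood closer together in the dense groups than in the rest in 3 of the 4 lists. The median distance between the centres of neighbouring peaks in the dense groups was 7755.5 bp for control, 5255 bp for Activin A, 14229 bp with Wnt3a and 5366 bp with both. In the rest of the window it was 16672, 8867, 13620 and 10620 bp. The Wnt3a list was the one without closer spacing in the dense groups, on 23 and 36 distances. That order turned under other settings, to 14201.5 bp against 16229.5 bp with dense groups 20 kb wider, and to 23348 bp against 70231 bp with the top 50% of scores. In the last dense group the control median was 2390.5 bp, on 5 distances that ranged from 2216.5 to 50144.5 bp. The median there was 2540.5 bp on 15 distances after Activin A and 3790.5 bp on 17 with both. With Wnt3a it was 26924.5 bp on 3 distances.

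Scores were compared as percentiles within a list, because the raw score of a peak depends on the library it was called in. A percentile of 50 is the middle of the list. Dense-group peaks lay a little under the middle of the control list (median 45.3) and of the Wnt3a list (42.2), and above it after Activin A (62.5) and with both ligands (69.6). In the rest of the window the medians were 47.1 in control, 53.4 after Activin A, 28.7 with Wnt3a and 61.6 with both. Peaks of the dense groups spread over nearly the whole range of each list, from 5.7 to 93.5 in control, 6.6 to 93.8 after Activin A, 0.052 to 93.6 with Wnt3a and 0.10 to 98.1 with both. The best 25% of each list included 8 of 33 dense peaks in control, 23 of 57 after Activin A, 6 of 26 with Wnt3a and 23 of 58 with both. Percentiles in a longer list are raised by the weak peaks below them. At equal length the medians of the dense groups were 50.8 in control, 30.6 after Activin A, 42.2 with Wnt3a and 47.2 with both, so the higher medians of the 2 long lists did not hold there.

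**Figure D2:**
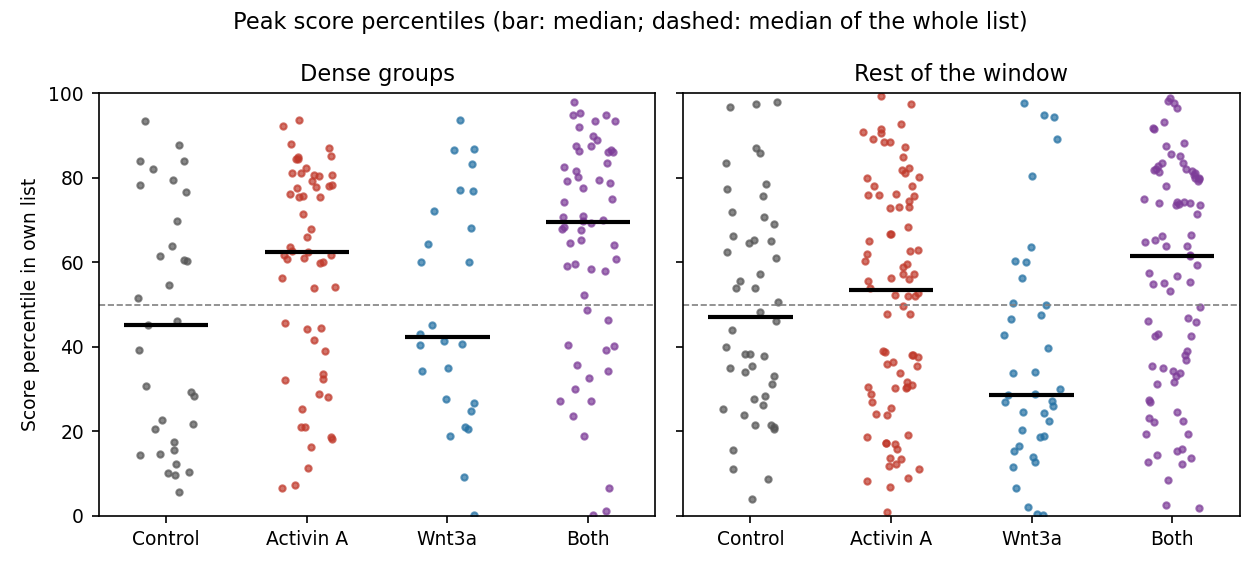
Score percentile of each peak within its own list (y axis, 0 to 100) for the 4 libraries (x axis), in the dense groups and in the rest of the window. Points are peaks, spread sideways for legibility, bars are medians and the dashed line is the median of a whole list. Dense-group medians were 45.3, 62.5, 42.2 and 69.6 for control, Activin A, Wnt3a and both.

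Presence was compared with control next, to find which parts of the cluster had a peak under treatment alone. The 3 comparisons share the single control library. After Activin A, 23 of 52 dense regions had no control peak (44.2%, 30.5 to 58.7), as did 36 of 79 in the rest (45.6%, 34.3 to 57.2), where the share over all Activin A regions was 70.0%. With Wnt3a the counts were 8 of 25 (32.0%, 14.9 to 53.5) and 11 of 37 (29.7%, 15.9 to 47.0), against 33.1% of all Wnt3a regions. With both ligands they were 29 of 57 (50.9%, 37.3 to 64.4) and 39 of 83 (47.0%, 35.9 to 58.3), against 62.5%. Dense groups and rest were alike within their intervals under each treatment.

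Weak regions are more often absent from control, so the shares were also set against those of regions in the same score bin. Given the shares of all Activin A regions in each bin, 32.7 of the 52 dense regions and 55.4 of the 79 in the rest would lack a control peak, and 23 and 36 did. For Wnt3a the counts were 8 against 8.6 in the dense groups and 11 against 15.9 in the rest. For both ligands they were 29 against 28.3 and 39 against 46.6. Observed minus expected, the Activin A share differed by -18.7 percentage points in the dense groups (-32.5 to -4.3) and by -24.6 in the rest (-35.8 to -13.0). With lists of equal length the observed shares were 27.3% and 8.0%, and the differences were -16.4 (-33.0 to 6.5) and -32.0 (-39.0 to -13.9), so that in the dense groups the interval then included 0. When a control peak within 1 kb counted as shared, the dense share was 28.8%. The intervals of the differences with Wnt3a and with both ligands included 0 in both parts of the window.

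**Figure D3:**
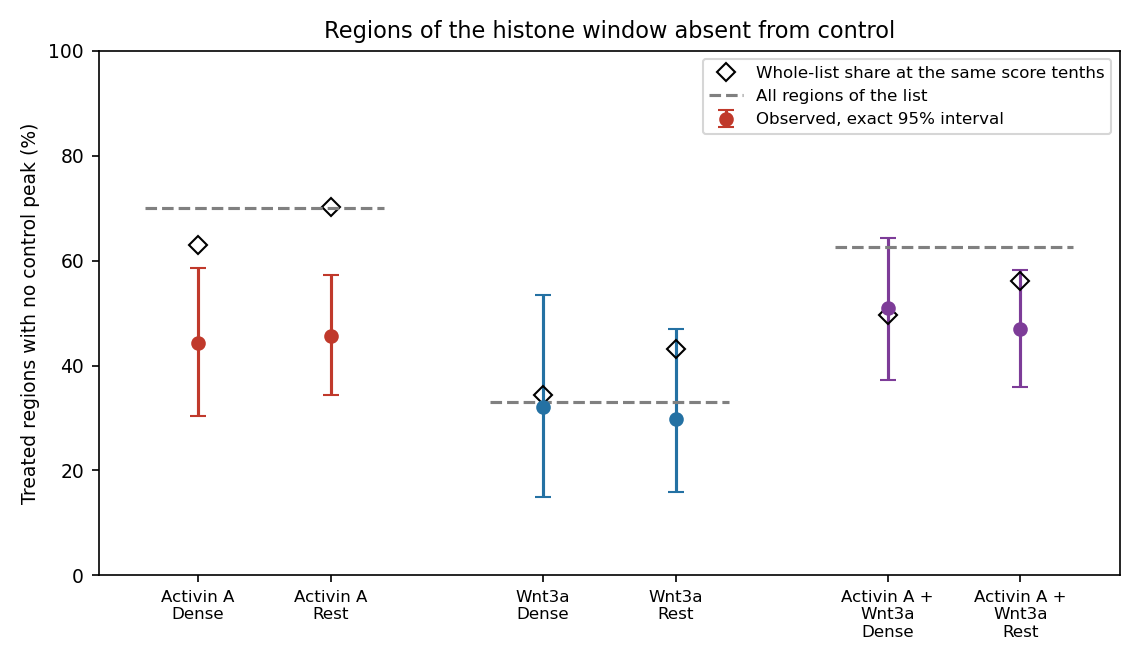
Share of treated regions with no control peak (y axis, percent) in the dense groups and in the rest of the window for the 3 treatments. Filled points are observed shares with exact 95% intervals, diamonds the share of all regions of the list in the same 10 score bins, and dashed lines the share over the whole list (70.0%, 33.1% and 62.5%). Only the Activin A intervals lie below both references.

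In the full lists few control regions of the cluster lacked a peak after Activin A or both ligands. In the dense groups 1 of 30 control regions had no Activin A peak (3.33%, 0.0844 to 17.2) and 2 of 30 had no peak with both (6.67%, 0.818 to 22.1), against 11.5% and 15.2% of all control regions. In the rest the counts were 4 and 3 of 47. When an overlap of at least 50% of each peak was required, the dense-group shares were 24.2% after Activin A and 51.5% with both. With 500 bases around each peak centre they were 15.2% and 21.2%. With lists of equal length they were 30.4% and 8.70%, and in the rest 46.5% and 37.2%. The shares thus rose several-fold under some settings, and the series shares under those settings were not computed. With Wnt3a 13 of 30 dense regions (43.3%, 25.5 to 62.6) and 21 of 47 in the rest (44.7%, 30.2 to 59.9) had no peak, near the 46.5% of all control regions. The 13 dense regions without a Wnt3a peak had a median control percentile of 28.5. Low scores are scarce in the Wnt3a list, where 57.8 stood at percentile 0.34, whereas in control 57.4 stood at 21.8. Whether this bears on the missing peaks was not tested.

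Regions shared with control were then compared by percentile. Of the shared dense regions, 24 of 29 were higher after Activin A, as were 32 of 43 in the rest, where 87.4% of all shared regions were. With Wnt3a 9 of 17 and 8 of 26 were higher, against 42.8%. With both ligands 26 of 28 and 37 of 44 were higher, against 80.3%. Most cluster regions thus had a higher percentile in the long lists, as most regions of the series did. Percentiles in a longer list are raised by the weak peaks below them, and these counts were not made at equal length.

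Of the 158 regions, 42 had a peak in all 4 lists (26.6%, 19.9 to 34.2), 17 in the dense groups and 25 in the rest, where 14.8% of all regions in the series did. Regions with a peak in every list but that of Wnt3a numbered 28 (17.7%, 12.1 to 24.6; series 8.43%), and 32 (20.3%, 14.3 to 27.4; series 21.9%) had one after Activin A and with both only. Those found after Activin A only numbered 11 (6.96%, 3.53 to 12.1), where the series had 30.1%. Those found with both ligands only numbered 19 (12.03%, 7.40 to 18.1; series 12.4%). A peak in all 3 treatments and none in control was found in 15 regions (9.49%, 5.41 to 15.2; series 5.24%).

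**Figure D4:**
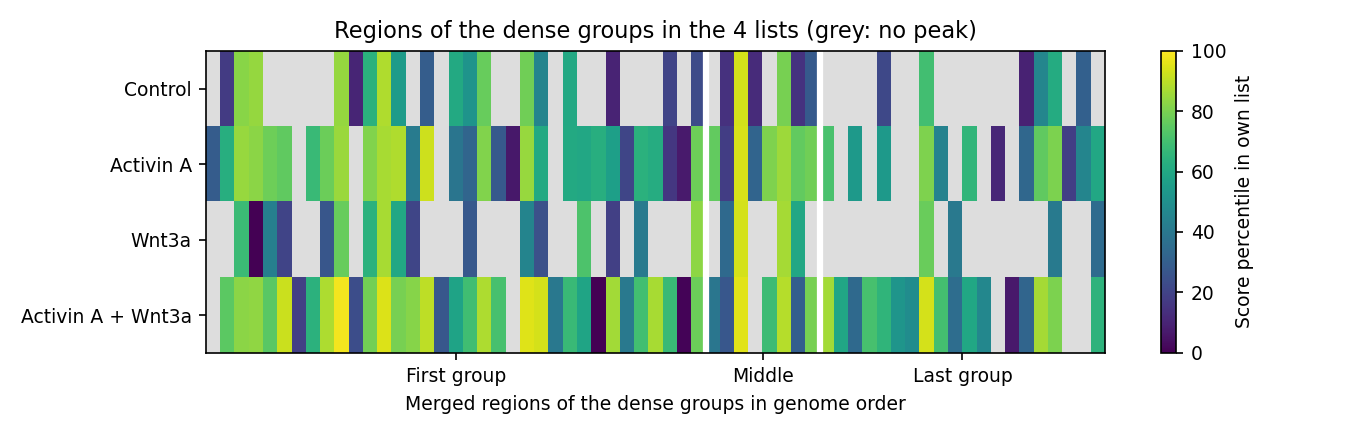
Score percentile (colour, 0 to 100) of each of the 63 merged regions of the dense groups, in genome order (x axis), in the 4 lists (rows), with grey where a list had no peak and white lines between the groups. The last group is mostly grey in the Wnt3a row, with 4 of 20 regions, and mostly coloured in the combined row, with 17 of 20. Over all regions of the series, 22.5% had a Wnt3a peak and 63.7% a combined peak.

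The first dense group, the longest of the 3, held 35 regions. Of these, 18 had a control peak (51.4%), 31 an Activin A peak (88.6%), 17 a Wnt3a peak (48.6%) and 33 a peak with both (94.3%). Over all regions of the series the shares were 28.2%, 83.1%, 22.5% and 63.7% in that order. Its highest control percentile was at 26157057 to 26158902 on chromosome 6, with 87.9 in control, 87.1 after Activin A, 86.8 with Wnt3a and 94.9 with both. Next came 26122579 to 26124946, at 84.1, 84.9, 76.8 and 98.1, the highest value of the dense groups in the combined list. Both stayed in the upper part of every list.

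The third by control percentile, 26031737 to 26032983, gave the largest fall in the window with Wnt3a. It stood at 84.1 in control, 82.4 after Activin A and 83.6 with both, but at 0.052 with Wnt3a, where its score of 54.1 was just above the lowest of that list, 51.1. The region before it at 26026356 to 26028058 stood at 82.2, 84.6, 68.2 and 82.5 in the order control, Activin A, Wnt3a and both. At 26216528 to 26218631 the values were 78.4, 84.5, 45.1 and 94.97. These 3 regions were lowest in the Wnt3a list.

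The largest shifts in percentile from control follow, between lists of different length and with no value at equal length for single regions. At 26188067 to 26189667 the percentile was 29.3 in control, 92.2 after Activin A and 90.03 with both, with no Wnt3a peak. At 26249906 to 26251187 it was 10.1 in control, 56.3 after Activin A, 18.9 with Wnt3a and 86.0 with both, the largest rise with both ligands in the window. At 26285346 to 26287180 it was 22.7 in control, 77.9 after Activin A, 83.2 with Wnt3a and 77.7 with both, the largest rise with Wnt3a. A fall after Activin A was seen at 26196848 to 26197893, from 60.6 to 39.1, with 57.8 with both and no Wnt3a peak.

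Of the 7 dense regions with a peak in all 3 treatments and none in control, 6 lay in the first group. That group held 35 of the 63 dense regions. The share was 17.1% (6.56 to 33.6) of its regions, against 8.42% in the rest of the window and 5.24% in the series. At 26033236 to 26034460, directly after the region with the largest Wnt3a fall, the percentiles were 78.0 after Activin A, 43.0 with Wnt3a and 74.3 with both. They were 77.6, 26.7 and 87.6 at 26103725 to 26104673, and 60.1, 72.1 and 58.5 at 26234724 to 26235742. At 26054965 to 26057261, a region of 2297 bp, they were 75.5, 20.4 and 92.2. The other 2 of the 6 stood at 41.7, 21.1 and 81.7 (26183364 to 26184202) and at 63.7, 41.4 and 69.9 (26268904 to 26269852), and were added after their values were seen. The 6 regions spread from 41.7 to 78.0 after Activin A and from 58.5 to 92.2 with both. In contrast, 26204219 to 26205341 had a control peak at 76.8, 81.2 after Activin A and 87.5 with both, and none with Wnt3a.

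The middle dense group, which is the shortest, held 8 regions. All 8 had an Activin A peak, 6 a control peak, 4 a Wnt3a peak and 7 a peak with both. Over all regions of the series 83.1%, 28.2%, 22.5% and 63.7% did, in that order. The region at 27099381 to 27101313 was the strongest of the dense groups in the control, Activin A and Wnt3a lists, with percentiles of 93.5, 93.8 and 93.6, and stood at 95.5 with both. At 27113582 to 27115421 the values were 79.4 in control, 85.3 after Activin A, 86.5 with Wnt3a and 89.0 with both. These 2 regions moved by less than 10 percentiles between lists.

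Weaker regions of the middle group moved more. At 27124947 to 27126422 the percentile was 14.6 in control, 75.8 after Activin A, 60.1 with Wnt3a and 29.9 with both, one of the 3 largest rises in the window both for Activin A and for Wnt3a. At 27145189 to 27146523 it was 28.5 in control, 78.4 after Activin A and 79.4 with both, with no Wnt3a peak. The region at 27094620 to 27095350 stayed low in all lists, at 14.4, 18.1, 34.3 and 27.2. All 6 regions shared with control had a higher percentile after Activin A and all 4 did with Wnt3a, against 87.4% and 42.8% of all shared regions. Neither of the 2 Activin A regions without a control peak had a Wnt3a peak, and 0 of 4 Wnt3a regions lacked a control peak, which allows a share of up to 60.2%.

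Of the 3 dense groups, the last differed most between lists in the share of its regions that had a peak, from 20% with Wnt3a to 85% with both. It held 20 regions, of which 6 had a control peak, 13 an Activin A peak, 4 a Wnt3a peak and 17 a peak with both. Over the whole series, 28.2% of regions had a control peak, 83.1% an Activin A peak, 22.5% a Wnt3a peak and 63.7% a peak with both. The Wnt3a share was thus near that of the series here, and above it in the first (48.6%) and middle (50%) groups. With both ligands 12 of the 17 had no control peak (70.6%, 44.0 to 89.7), against 15 of 33 (45.5%, 28.1 to 63.6) in the first group and 62.5% of the whole list. The intervals overlap. Regions with a peak in the combined list alone numbered 6 of 20 here (30.0%, 11.9 to 54.3), against 3 of 35 in the first group, 0 of 8 in the middle one and 12.4% of all regions in the series. These 6 regions had percentiles of 59.2 (27763470 to 27764106), 70.8 (27775370 to 27776243), 52.3 (27782234 to 27783062), 48.7 (27793613 to 27794162), 46.2 (27838567 to 27839285) and 6.7 (27850222 to 27850774). They are named because of their presence pattern, after their values were seen.

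Only 2 regions of the last group had a peak in all 4 lists. The region at 27804594 to 27807047 stood at 69.9 in control, 80.6 after Activin A, 77.1 with Wnt3a and 93.5 with both. At 27859339 to 27861866, with 2528 bp the longest region of the window, the values were 61.5, 80.5, 40.8 and 80.2. The neighbouring region at 27857256 to 27859229 stood at 46.1 in control, 75.4 after Activin A and 86.5 with both, without a Wnt3a peak. At 27777512 to 27778434 the values were 21.8, 54.1 and 65.3 in the same lists. The region at 27863178 to 27863729, at 30.6 in control and 45.6 after Activin A, had no peak with Wnt3a or both.

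The strongest peak of the window lay outside the dense groups in each of the 4 lists. The region at 27218410 to 27220240 stood at 97.9 in control, 99.5 after Activin A, 94.4 with Wnt3a and 99.0 with both, and 27440002 to 27441321 at 97.5, 97.6, 97.7 and 98.2. The third, 26536860 to 26539206, was at 96.8 in control, 88.6 after Activin A and 96.5 with both, but at 46.6 with Wnt3a. At 26341614 to 26342730 the values were 85.8, 90.5, 60.2 and 91.8. The second was near the top of every list, and the other 3 were lowest with Wnt3a.

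Large shifts in rank were found in the rest as well. At 27262811 to 27264401 the control percentile of 87.0 fell to 36.4 after Activin A and 13.7 with both, and no Wnt3a peak was present. It had the largest fall of the window after Activin A and with both. The next largest falls with both ligands, of 9 in the window, were at 27279703 to 27280983, from 55.6 to 22.4, and at 26614149 to 26615096, from 62.5 to 36.9. The opposite was seen at 26596763 to 26597948, at 3.9 in control, 79.9 after Activin A, 27.1 with Wnt3a and 78.0 with both. A rise with both ligands was also found at 26327530 to 26328656, from 8.7 to 73.5, with 26.9 after Activin A. At 27463045 to 27464225 the largest gain was with Wnt3a, with 40.0 in control, 74.5 after Activin A, 89.2 with Wnt3a and 82.1 with both. The largest falls with Wnt3a in the rest were at 27639646 to 27640699 (64.6 in control to 6.5) and 26532914 to 26533778 (53.8 to 0.34). Their Wnt3a scores, 59.8 and 57.8, lay near the bottom of that list, whereas in the control list a score of 57.9 stood at 22.7. Regions with a strong control peak and none with Wnt3a included 27569485 to 27570805 (83.5), 27197536 to 27198852 (78.5, with 59.0 after Activin A and 81.6 with both) and 27520660 to 27521671 (70.7), all with an Activin A and a combined peak. In the rest, 27533423 to 27534375 had no control peak and stood at 57.1 after Activin A, 60.3 with Wnt3a and 66.5 with both.

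The combined treatment was then compared with Activin A alone, in the same medium, to see whether adding Wnt3a went with a change in the rank of cluster regions. Of the 117 regions that both lists shared in the window, 71 had a higher percentile with both ligands (60.7%, 51.2 to 69.6), where 34.5% of the 44302 regions shared in the whole series did. In the dense groups the count was 29 of 46 (63.0%, 47.5 to 76.8) and in the rest 42 of 71 (59.2%, 46.8 to 70.7). At equal score, in 10 bins of the mean of both percentiles, 15.3 of the 46 and 24.4 of the 71 would be higher. The share was 37.9% on chromosome 6 as a whole, 12 of 29 in the stretch of 1.9 Mb before the window and 27 of 60 in the one after it. Of 50 stretches of chromosome 6 with at least 20 shared regions, the histone window had the highest share, and of 879 such stretches in the genome 7 had a higher one. The median percentile of the shared dense regions was 69.6 after Activin A and 76.3 with both, whereas over the series it fell from 69.2 to 60.6. At equal list length 90% (68.3 to 98.8) of the shared dense regions were higher with both ligands, as were 81.0% (58.1 to 94.6) in the rest. The series share was 50.1%. The window shares rest on fewer regions there, since at that length the Activin A list kept 23 dense peaks and 26 in the rest. Each of these shares compares 1 library with 1 other.

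Single regions show the difference. At 26223551 to 26225929 in the first group the percentile was 60.9 after Activin A and 93.5 with both, with 45.3 in control and 24.8 with Wnt3a. At 26272235 to 26273495 it was 16.3 after Activin A and 67.8 with both, with 20.5 in control. In the rest, 26420758 to 26422214 stood at 11.7 after Activin A and 83.7 with both, and 27719856 to 27721420 at 12.3 and 81.9. The reverse was largest at 26240294 to 26241013, with 62.8 after Activin A and 0.10 with both. These 5 regions were chosen after their values were seen. Besides the shared regions, 14 had an Activin A peak and none with both, and 23 the reverse, where the series had 28814 and 11753.

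**Figure D5:**
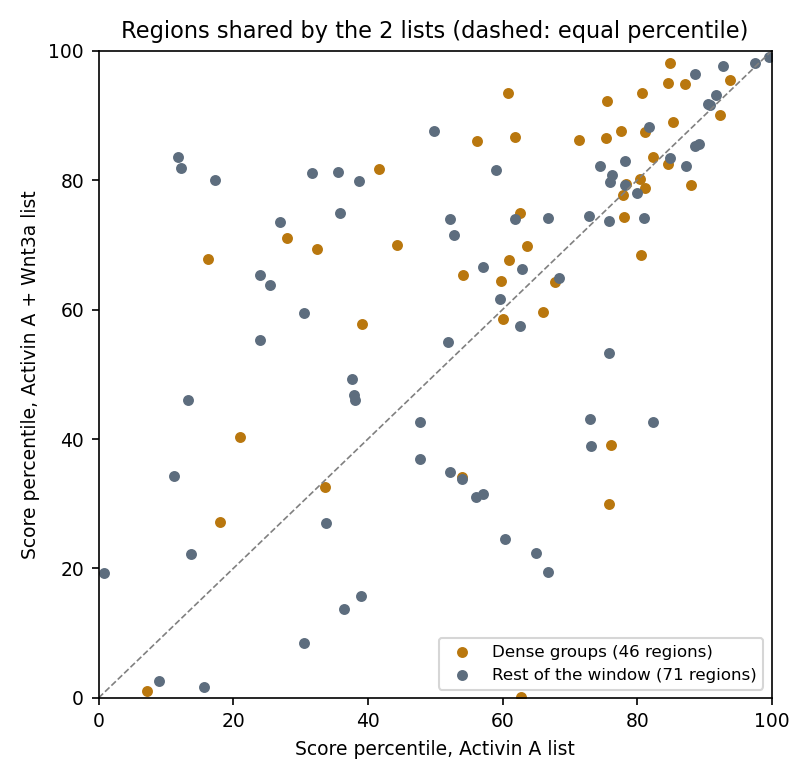
Score percentile in the Activin A list (x axis) and in the combined list (y axis) of the 117 regions of the window found in both, coloured by dense groups (46 regions) and rest (71 regions). The dashed line marks equal percentiles, and 71 points lie above it.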

How the data were processed

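Open chromatin was measured by ATAC-seq in 4 libraries, 1 per group, with groups taken from the labels. Each library has 1 deposited list of peaks with chromosome, start, end, a name in the style of MACS and a score. The score is the authors' own value as deposited and was used only to rank peaks within a list; its definition is not stated. Per the submitters' processing notes, CASAVA 1.8, Bowtie2 2.2.2 and build hg19 were used. Caller settings, duplicate removal, read shifting and depth are unknown here, and each would change which weak peaks are listed.

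Peaks overlapping the window were kept and placed in a dense group if they overlapped it by at least 1 base. Peaks of the 4 lists were merged where they overlapped or touched, and a region took the best percentile of its peaks in a list. Percentiles are mean ranks over the whole list. Expected counts at equal score apply the share in each of 10 score bins over the whole list. Coordinates are counted from 1. Regions were named by rule: the 5 highest control percentiles in each dense group and in the rest, the 3 largest rises and falls per treatment, the 5 highest found in all treatments but not in control, and the 5 highest control regions missing from a treatment. The members and lists were chosen with earlier results of these data known. Merging was checked on the control list with isolated peaks removed and made-up peaks added far from others. Recovery of changes among closely spaced peaks was not checked. Sequences came from RefSeq, GRCh38.p14. Alternatives covered overlap, distance, list length, score, width and group boundaries. Python 3.11.15, numpy 2.4.6, pandas 2.3.3, scipy 1.17.1 and matplotlib 3.10.9 were used.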

Additional observations from a re-analysis of the deposited data

How the results depend on the processing

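Of 226 values recomputed under alternatives, 174 stayed within the 95% interval of the value as reported and 52 moved. These intervals are wide: with 500 bases around each centre, dense control regions lost went to 15.2% for Activin A and 21.2% for both and still lay inside them. By that measure none moved with 500 bases around each centre, dense groups 20 kb wider, placement by centre, 20 score bins or merging without the Wnt3a list. That last alternative, and all those of the comparison of both ligands with Activin A, were chosen after seeing the data. Part of the 174 could not move. The Wnt3a list already has the equal length, so its own density, width, spacing and percentile are the same values there. Placement by centre also left every value as it was. The count of unmoved values is therefore no measure of stability. No paired analysis was possible because no group has a second library.

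With lists of equal length, which keeps fewer and stronger peaks, median width in the dense groups and the rest was 961 and 1015 bp for Activin A and 1134 and 1077 bp for both ligands. Spacing was 15031 and 24635 bp for Activin A and 10879.5 and 19742.5 bp for both. The median percentile was 30.6 and 33.4 for Activin A, and 47.2 in the dense groups for both. Control regions lost were 30.4% and 46.5% for Activin A, and 37.2% in the rest for both. Regions with no control peak were 27.3% and 8.0% for Activin A, and 30.8% in the rest for both. The share higher with both ligands than with Activin A was 90% (68.3 to 98.8) and 81.0% (58.1 to 94.6), on fewer regions, against 50.1% in the series.

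With the top 50% of scores, widths were 877 and 799 bp in control, 920 and 868.5 bp for Activin A, 700 and 769 bp for Wnt3a, and 1052 and 1028.5 bp for both. Spacing was 14095 and 37706 bp in control, 10653 and 13286 bp for Activin A, 23348 and 70231 bp for Wnt3a, and 14124 bp in the rest for both. Control regions lost were 0.0% and 18.2% for both and 63.6% in the rest for Wnt3a. Regions with no control peak were 63.9% and 57.8% for Activin A and 64.0% in the rest for both. The share higher with both was 33.95% in the series.

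With an overlap of at least 50% of each peak, control regions lost were 24.2% and 31.2% for Activin A and 51.5% and 27.1% for both, and regions with no control peak were 60.7% in the rest for Activin A and 72.4% and 58.3% for both. With absence judged within 1 kb, control regions lost in the rest were 2.13% for Activin A and 0% for both, and dense regions with no control peak were 28.8% for Activin A. For these shares the cause was not tested. With 1 library per group, differences between libraries and between treatments cannot be told apart.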

Other observations

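The longest stretch with no peak in any list ran for 228 kb, from 26758612 to 26987101, between the first and the middle dense group, and the next for 84.2 kb, from 26660762 to 26745012. Of the 158 regions, 16 held more than 1 peak of the same list, 8 of them in the dense groups, against 4915 of 87966 in the series. Such splits were seen in 10 of 131 Activin A regions, 4 of 77 in control, 2 of 62 with Wnt3a and 2 of 140 with both. In the series the counts were 2318 of 73116, 1348 of 24769, 1170 of 19801 and 2168 of 56055 in that order. At some places in the window the combined list had 1 broad peak where the Activin A list had 2.

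Among the 42 regions with a peak in all 4 lists, the highest percentile was in the combined list for 19, in the Activin A list for 15 and in control and Wnt3a for 4 each. In the series the combined list was highest for 29.5% of such regions and the Activin A list for 61.1%.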
